A study of Mus musculus with 6 samples.

Results

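The sarcoplasmic reticulum calcium pump and buffers were taken here as 10 genes, Atp2a2, Atp2a3, Pln, Hrc, Casq1, Casq2, Trdn, Asph, Sri and S100a1, each found once by symbol among the 54532 genes of the deposited table. They were read in 6 heart libraries. Of these, 3 came from Ythdc1 conditional knockout mice (CKO) and 3 from Ythdc1 flox/flox mice (flox control), which carry the floxed alleles. The labels state 15 days of normal chow for both groups and call the libraries independent biological replicates, but give neither age, sex, the Cre driver nor the cells in which the gene was deleted, and the knockout is written HKO in the series text. Ythdc1 encodes a nuclear protein that binds N6-methyladenosine (m6A), a mark on RNA bases. The values are FPKM, which divides fragments by gene length and by a library size. The deposited length was 16102 bases for Asph and 9352 for Trdn, whose longest protein-coding transcripts have 6694 and 4514 bases. For S100a1 these lengths were 694 and 677 bases. Levels of different genes can therefore be compared only roughly.

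The sarcoplasmic reticulum is the calcium store of the muscle cell. At each beat calcium leaves it through the ryanodine receptor Ryr2 and is returned by the pump SERCA2, the product of Atp2a2. Phospholamban (Pln) holds the pump back until it is phosphorylated, and the cytosolic EF-hand proteins sorcin (Sri) and S100A1 bind the pump and the release channel. Inside the store calcium is held by calsequestrin (Casq2 in heart, Casq1 mainly in skeletal muscle) and by the histidine-rich calcium-binding protein (Hrc). Triadin (Trdn) and junctin, a product of Asph, tie calsequestrin to the release channel.

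Promoter sequence was available for 7 of the 10 genes (RefSeq, build GRCm38.p6; Atp2a2, Trdn and Asph were not matched). The bases upstream of the start are shown for Hrc and Sri, which changed in opposite directions, for Pln, whose level relative to the pump is described below, and for Casq2, the main luminal buffer. Capitals mark matches, on either strand, to CANNTG (E-box), CTANNNNTA (the outline of a MEF2 site) or AGATAA (the site of GATA factors), and no matches overlap.
Hrc, chr7:45335019-45335268, plus strand: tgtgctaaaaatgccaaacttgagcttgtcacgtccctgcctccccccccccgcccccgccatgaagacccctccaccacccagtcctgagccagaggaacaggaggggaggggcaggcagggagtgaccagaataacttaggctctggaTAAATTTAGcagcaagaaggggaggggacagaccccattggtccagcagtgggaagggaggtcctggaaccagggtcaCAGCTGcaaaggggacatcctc
Sri, chr5:8045828-8046077, plus strand: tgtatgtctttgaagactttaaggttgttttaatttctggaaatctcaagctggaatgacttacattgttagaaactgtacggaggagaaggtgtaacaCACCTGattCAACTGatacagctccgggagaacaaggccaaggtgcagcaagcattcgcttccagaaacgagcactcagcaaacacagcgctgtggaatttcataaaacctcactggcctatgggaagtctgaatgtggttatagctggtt
Pln, chr10:53337436-53337666, plus strand: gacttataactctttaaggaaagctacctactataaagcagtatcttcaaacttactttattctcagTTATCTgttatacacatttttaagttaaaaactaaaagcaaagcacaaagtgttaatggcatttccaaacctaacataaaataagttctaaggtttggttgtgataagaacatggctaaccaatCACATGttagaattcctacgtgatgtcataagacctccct
Casq2, chr3:102086165-102086414, plus strand: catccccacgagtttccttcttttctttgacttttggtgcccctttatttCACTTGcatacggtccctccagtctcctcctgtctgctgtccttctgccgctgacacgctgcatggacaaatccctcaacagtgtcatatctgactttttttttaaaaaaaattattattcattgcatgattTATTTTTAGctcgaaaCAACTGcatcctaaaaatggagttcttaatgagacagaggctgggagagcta
Each run holds 250 bases except that of Pln, which was shortened by 19 bases because GENCODE starts the transcript earlier. The Hrc run held 1 E-box and 1 MEF2 outline, the Casq2 run 2 E-boxes and 1 MEF2 outline, the Sri run 2 E-boxes, and the Pln run 1 E-box and 1 GATA match. Of 32851 windows of 250 bases in the RefSeq table, 66.2% held an E-box, 19.0% a MEF2 outline and 9.99% a GATA match. These matches describe the letters only.

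Reads recovered from the FPKM numbered 17434296 to 19360428 per library, and the members had between 210 and 201046 reads each. The lowest, Casq1 in CKO 1 (5.999 FPKM), had an exact 95% Poisson interval of 5.22 to 6.87 FPKM, which covers counting error only. Ythdc1 itself measured 2.39, 2.57 and 2.34 FPKM in CKO 1, 2 and 3, and 4.31, 3.64 and 4.10 FPKM in flox controls 1, 2 and 3 (log2 fold change -0.54, limma adjusted p = 0.015). That call was lost without CKO 3, flox control 1 or flox control 3 (limma adjusted p from 0.0535 to 0.0707), and after rescaling to TPM (0.0944) or to the same sum (0.0903). Of the markers that define heart muscle, 8 of 8 were measured and 0 passed the test, with a summed level of 12549.6 to 17783 FPKM in CKO and 15690.1 to 20177 FPKM in flox controls. Actc1 and Myh6 made up most of that sum. Log2 fold changes were negative for Ryr2 (-0.72), Mb (-0.40), Actc1 (-0.35), Myh6 (-0.28), Ttn (-0.27) and Tnnt2 (-0.15), and positive for Actn2 (0.23) and Tnnc1 (0.15). CKO 3 stood apart with 4037 Xist reads, against 0 to 5 in the other libraries. It had 33 reads of Ddx3y, a gene of the Y chromosome, against 1004 to 1495 in the other libraries. By these genes CKO 3 had a female pattern and the other libraries a male one, so sex was not balanced between the groups. CKO 1 stood apart in macrophage and monocyte markers, whose 6 genes summed to 685 FPKM there and to 79.6 to 199 FPKM in the other libraries. Of 6 fibroblast markers 1, Tcf21, rose and 0 fell. Their sum was 393 to 535 FPKM in CKO and 295 to 402 FPKM in flox controls. The part of other cell types in the member values was not tested. In bulk tissue, fewer cells of a type and less RNA per cell cannot be told apart.

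Of the 10 genes, 3 fell in CKO hearts (Hrc, Atp2a2 and Trdn), 1 rose (Sri), and 6 did not pass the test. The test was limma on log2(FPKM + 1) with Benjamini-Hochberg adjusted p under 0.05, and all 10 passed the filter on low values, a mean FPKM of 1 or more. Of the 12144 genes tested, 11.2% were called, 5.49% lower and 5.69% higher. The groups did not overlap for 5 of the 10 genes, of which 4 were lower in CKO and 1 higher. This was so for 34.3% of all genes tested, 17.4% lower and 16.9% higher. The median log2 fold change of the 10 was -0.23, and that of all genes tested was 0.01. Fold changes below are CKO minus flox control on the log2(FPKM + 1) scale.

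**Figure D1:**
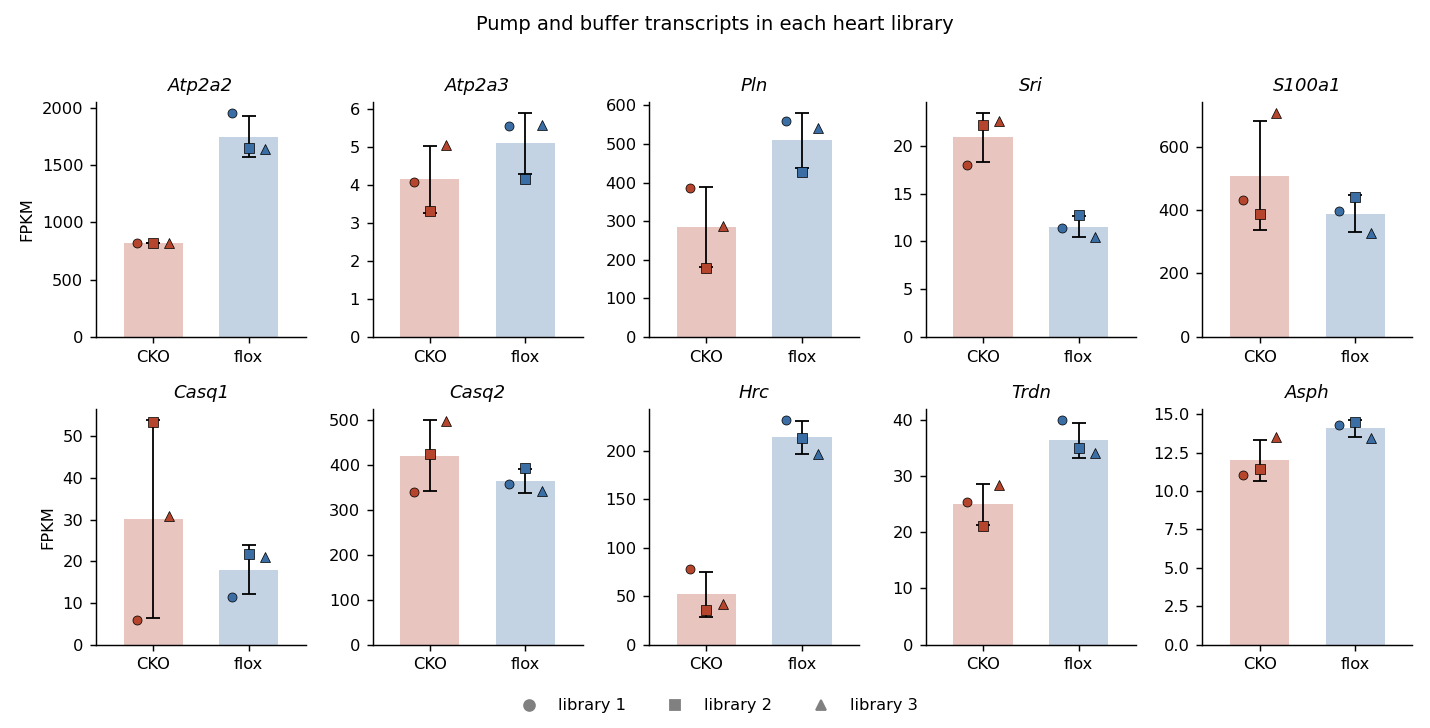
FPKM of each of the 10 genes (linear axes from 0, 1 panel per gene) in CKO libraries (left, red) and flox control libraries (right, blue). Bars are means, whiskers are SD over 3 libraries and symbols are libraries 1, 2 and 3; Atp2a2, Pln, Hrc and Trdn lie lower in every CKO library and Sri lies higher in every CKO library.

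Atp2a2, which encodes the cardiac pump SERCA2, measured 820.5, 819.9 and 824 FPKM in CKO 1, 2 and 3, against 1955, 1648 and 1642 FPKM in flox controls 1, 2 and 3. The CKO values lay within a narrow band far below the lowest control. Their SD was 0.245% of the mean, below the 0.329% that read counting alone would give, whereas in flox controls the SD was 10.3% of the mean. This narrow band depends on the deposited scaling of the libraries. The FPKM of all genes summed to 424778, 351431 and 461435 in CKO 1, 2 and 3, so the band would be wider on a scale with equal sums. Atp2a2 averaged 821 ± 2.01 FPKM in CKO and 1748 ± 179 FPKM in flox controls (SD, n = 3 each), a ratio of 0.470. Its log2 fold change was -1.08 (SE 0.15, limma adjusted p = 0.0106). It ranked 31st to 48th among all genes in CKO libraries and 19th in each flox control. The call was lost without flox control 1 (limma adjusted p = 0.0573), where the log2 fold change was -1.001, and with no filter on low values (0.11). Exons of Gm43361 overlap Atp2a2 over 83 bases on the opposite strand.

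The other pump genes were minor transcripts. Atp2a3, which encodes the SERCA3 pump of blood cells and endothelium, measured 4.07, 3.31 and 5.07 FPKM in CKO and 5.54, 4.17 and 5.59 FPKM in flox controls. The groups overlapped (log2 fold change -0.25, 95% interval -0.63 to 0.13, limma adjusted p = 0.356). Platelet markers summed to 17.1 to 22.2 FPKM in CKO and 18.2 to 24.2 FPKM in flox controls, and endothelial markers to 221 to 293 FPKM and 296 to 301 FPKM in the same order. Of the 6 endothelial markers 1, Tie1, fell and 0 rose; its part in the Atp2a3 values was not tested. Atp2a1, the fast skeletal pump, had 7 to 9 reads per CKO library and 7 to 19 per flox control. As a share of the 3 pump genes, Atp2a3 made up 0.494%, 0.402% and 0.612% in CKO and 0.283%, 0.253% and 0.339% in flox controls, and Atp2a2 nearly all of the rest. This share depends on the level of Atp2a2, which fell.

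Pln, the pump's inhibitor, measured 386, 178 and 287 FPKM in CKO 1, 2 and 3, against 560.1, 428 and 540.1 FPKM in flox controls 1, 2 and 3. The groups did not overlap, but CKO 1 came close to flox control 2 and the CKO values spread widely. The means were 284 ± 104 FPKM in CKO and 509 ± 71.3 FPKM in flox controls (SD, n = 3 each). The difference did not pass (log2 fold change -0.90, 95% interval -1.59 to -0.21, limma adjusted p = 0.0984). It passed without CKO 1, where it was -1.16 (limma adjusted p = 0.037). Exons of Cep85l and Gm47644 overlap Pln on the opposite strand, over 141 and 1644 bases, and strand marking is not described. Cep85l measured 2.08 to 2.48 FPKM in CKO and 2.57 to 3.22 FPKM in flox controls. Gm47644 measured 2.37 to 5.64 FPKM in CKO and 5.95 to 12.4 FPKM in flox controls.

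The ratio of Pln to Atp2a2 was 0.471, 0.217 and 0.349 in CKO 1, 2 and 3, and 0.286, 0.260 and 0.329 in flox controls 1, 2 and 3. CKO 1 and CKO 3 lay above every control and CKO 2 below every control. The means were 0.346 ± 0.127 in CKO and 0.292 ± 0.0349 in flox controls (SD, n = 3 each). On the log2 scale the difference was 0.18 (exact two-sided permutation p = 0.6, where 3 against 3 libraries cannot go below 0.1). Its sign rested on single libraries, being -0.08 without CKO 1 and 0.48 without CKO 2. A ratio within a library does not depend on how libraries were scaled.

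Sri, which encodes sorcin, an EF-hand protein that damps the release channel, was the only member that rose. It measured 18.0, 22.1 and 22.6 FPKM in CKO and 11.4, 12.7 and 10.5 FPKM in flox controls, with no overlap. The means were 20.9 ± 2.55 FPKM in CKO and 11.5 ± 1.12 FPKM in flox controls (SD, n = 3 each), a ratio of 1.81. The log2 fold change was 0.80 (SE 0.12, limma adjusted p = 0.0125). The call was lost without flox control 1 (limma adjusted p = 0.0593) or flox control 3 (0.0513).

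S100a1, whose product raises pump and release channel activity, measured 431, 389 and 706 FPKM in CKO, against 398, 442 and 327 FPKM in flox controls. CKO 3 was far above the rest, while CKO 1 and CKO 2 lay within the range of the controls. The difference did not pass (log2 fold change 0.35, 95% interval -0.26 to 0.96, limma adjusted p = 0.43). Without CKO 3 it was 0.08.

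**Figure D2:**
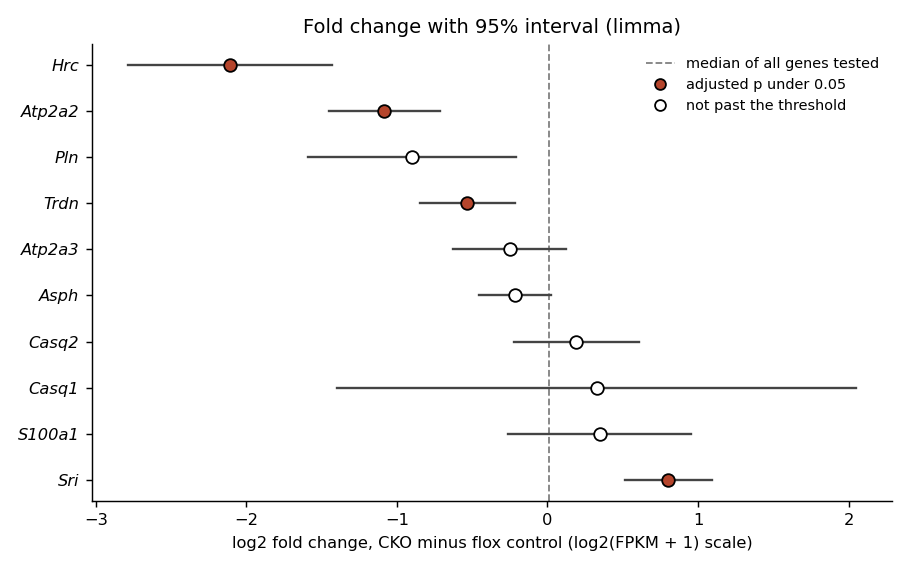
Log2 fold change of each gene, CKO minus flox control on the log2(FPKM + 1) scale, with its 95% limma interval from 3 libraries a group. Filled points passed adjusted p under 0.05 and the dashed line is the median of all genes tested (0.01); Hrc lies farthest to the left at -2.11 and Sri farthest to the right at 0.80.

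Among the proteins of the store's lumen, Hrc fell while neither calsequestrin gene passed. Hrc, which binds calcium and contacts both the pump and triadin, measured 78.1, 35.3 and 42.0 FPKM in CKO 1, 2 and 3, against 231, 213 and 197 FPKM in flox controls 1, 2 and 3. The highest CKO library held less than any control by a wide margin. The means were 51.8 ± 23.1 FPKM in CKO and 214 ± 17.2 FPKM in flox controls (SD, n = 3 each), a ratio of 0.242. The log2 fold change was -2.11 (SE 0.28, limma adjusted p = 0.00957). This was the largest change among the 10, and it lay at percentile 0.124 of the log2 fold changes of all genes tested. Hrc stayed past the threshold in all 15 alternatives, with adjusted p between 0.00211 and 0.0491 (limma). No annotated exon of another gene overlaps it.

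Casq2, the cardiac calsequestrin, measured 340, 425 and 496 FPKM in CKO and 358, 393 and 342 FPKM in flox controls. CKO 1 was the lowest of the 6 libraries and CKO 3 the highest. The log2 fold change was 0.19 (95% interval -0.22 to 0.60, limma adjusted p = 0.528).

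Casq1, the skeletal calsequestrin, was the most variable member. It measured 5.999, 53.5 and 30.8 FPKM in CKO and 11.3, 21.7 and 21.03 FPKM in flox controls. CKO 1 was below every control, and CKO 2 and CKO 3 were above every control. The log2 fold change was 0.33 (95% interval -1.40 to 2.05, limma adjusted p = 0.816). It was -0.30 without CKO 2 and 1.18 without CKO 1 (limma adjusted p = 0.827 and 0.0751). Of 8 skeletal muscle markers 0 reached the filter, and their summed level was 1.40, 1.36 and 2.54 FPKM in CKO 1, 2 and 3 and 2.69, 2.94 and 2.21 FPKM in flox controls 1, 2 and 3. As a share of both calsequestrin genes, Casq1 made up 1.74%, 11.2% and 5.84% in CKO and 3.07%, 5.22% and 5.79% in flox controls. Exons of Gm17224 overlap Casq1 over 156 bases on the opposite strand.

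Trdn, which encodes the scaffold between calsequestrin and the release channel, measured 25.4, 21.1 and 28.4 FPKM in CKO, against 40.0, 35.1 and 34.2 FPKM in flox controls. The groups did not overlap, and CKO 2 was the lowest, as it was for Pln and Hrc. The means were 24.99 ± 3.66 FPKM in CKO and 36.4 ± 3.13 FPKM in flox controls (SD, n = 3 each). The log2 fold change was -0.53 (SE 0.13, limma adjusted p = 0.049). This call stood at the threshold, and it was lost when any 1 library was left out (limma adjusted p from 0.0581 to 0.165).

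Asph, a locus that yields aspartyl beta-hydroxylase, junctin and junctate, measured 11.1, 11.5 and 13.5 FPKM in CKO and 14.3, 14.5 and 13.5 FPKM in flox controls. Only CKO 3 reached the control range, and the difference did not pass (log2 fold change -0.22, 95% interval -0.45 to 0.02, limma adjusted p = 0.215). The gene value sums all its products, so junctin alone was not measured. Exons of Clvs1 overlap it over 2302 bases on the opposite strand.

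The order of levels differed between the groups. In CKO, Atp2a2 stood above S100a1, Casq2 and Pln, whose ranges overlapped from each to the next, and Hrc, Casq1, Trdn and Sri formed a second run of neighbours with overlapping ranges. Asph and Atp2a3 followed, each apart from the gene above it. In flox controls, Atp2a2 came first, then Pln, S100a1 and Casq2 with overlapping ranges, then Hrc and Trdn, each apart from its neighbours. Casq1 and Asph overlapped there, and Sri and Atp2a3 came last. The order within a group depends on the deposited gene lengths.

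All 10 genes together summed to 2120.1, 1959 and 2456 FPKM in CKO and to 3585, 3212 and 3132 FPKM in flox controls. Atp2a2 made up 38.7%, 41.9% and 33.5% of that sum in CKO and 54.5%, 51.3% and 52.4% in flox controls. Hrc made up 3.68%, 1.80% and 1.71% in CKO and 6.45%, 6.65% and 6.29% in flox controls. Casq2 took 16.0% to 21.7% in CKO and 9.97% to 12.2% in flox controls. Its own level overlapped between the groups (log2 fold change 0.19, limma adjusted p = 0.528). These shares depend on the level of Atp2a2, which fell, and on the deposited gene lengths.

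**Figure D3:**
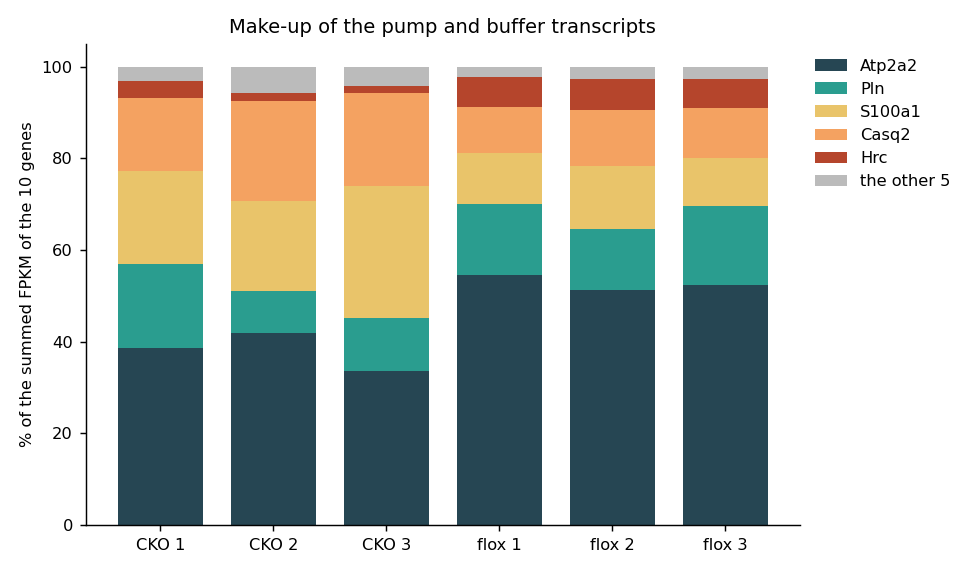
Share of each gene in the summed FPKM of the 10 genes (percent, stacked bars, 1 bar per library, CKO left and flox control right). The Atp2a2 segment reaches 33.5% to 41.9% in CKO libraries and 51.3% to 54.5% in flox controls; grey holds the genes not named in the legend.

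Relative to the pump transcript, most members were higher in CKO and Hrc was lower. The ratio to Atp2a2 did not overlap between groups for Atp2a3, Casq2, Trdn, Asph, Sri and S100a1, all higher in CKO, and for Hrc, lower in CKO; it overlapped for Pln and Casq1. All these ratios share 1 denominator that fell. The background was accordingly high. Of 12064 genes, 88.3% had a ratio to Atp2a2 without overlap, 87.6% higher in CKO and 0.688% lower. The Hrc ratio was 0.0952, 0.0430 and 0.0509 in CKO and 0.118, 0.130 and 0.120 in flox controls. The Sri ratio was 0.0219, 0.0270 and 0.0274 in CKO and 0.00584, 0.00772 and 0.00639 in flox controls, and its mean was 3.83 times higher in CKO. The Casq2 ratio was 0.414, 0.518 and 0.603 in CKO and 0.183, 0.238 and 0.208 in flox controls. The S100a1 ratio was 0.525, 0.474 and 0.858 in CKO and 0.204, 0.268 and 0.199 in flox controls. For each ratio without overlap the exact two-sided permutation p was 0.1, the smallest that 3 against 3 libraries allow, and 0.138 adjusted over the 11 ratios and shares computed.

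**Figure D4:**
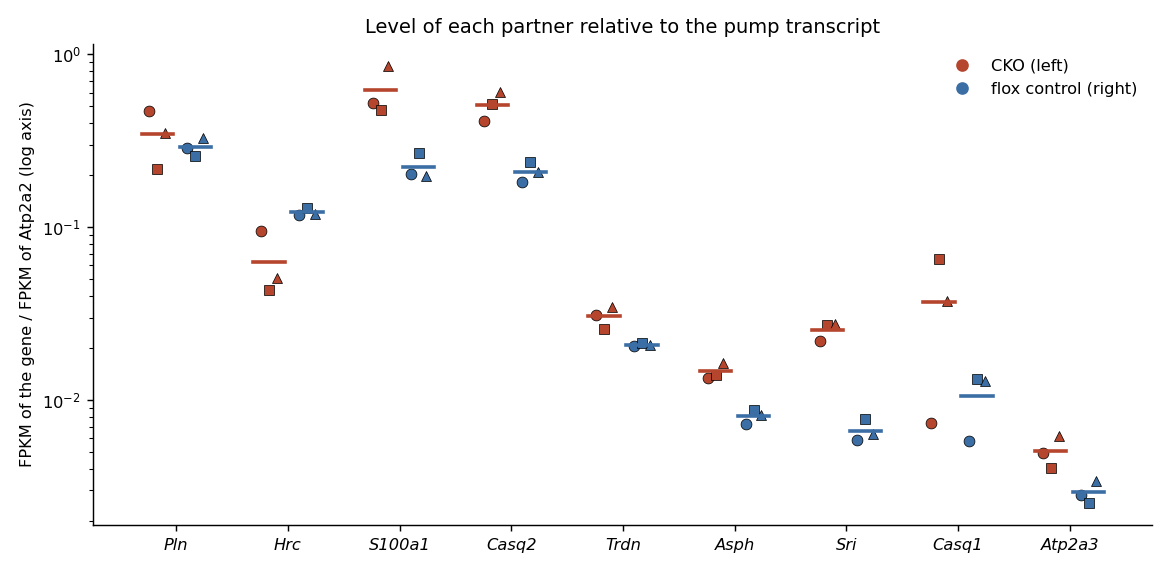
Ratio of each gene's FPKM to that of Atp2a2 in every library (log axis), CKO left in red and flox control right in blue, with lines at the group means and symbols for libraries 1, 2 and 3. Hrc lies lower in every CKO library, Pln and Casq1 overlap, and the others lie higher in every CKO library.

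Among the other regulators of the pump and of phospholamban phosphorylation, calls went in both directions. Of 24 genes listed, 21 were tested, of which 1 rose, 2 fell and 18 did not pass, with a median log2 fold change of -0.08. Among all genes tested, 5.69% were called higher and 5.49% lower. An unadjusted limma p under 0.05 was found for 5 of the 21, and for 3365 of all 12144 genes tested. Prkar1a, a regulatory subunit of protein kinase A, the kinase that phosphorylates phospholamban, rose (275 ± 35.1 FPKM in CKO, 117 ± 8.57 FPKM in flox controls, limma adjusted p = 0.00624). Sln, which encodes sarcolipin, a small pump inhibitor found mainly in atria, measured 3.34, 1.09 and 0.167 FPKM in CKO and 21.1, 5.05 and 19.8 FPKM in flox controls (log2 fold change -2.68, limma adjusted p = 0.0436). Its highest CKO library stood below its lowest control, flox control 2. Ppp1r1a, an inhibitor of protein phosphatase 1, was the other gene that fell (0.919 ± 0.394 FPKM in CKO, 2.26 ± 0.408 FPKM in flox controls, limma adjusted p = 0.0442). The Sln and Ppp1r1a calls were both lost without CKO 2, CKO 3, flox control 1 or flox control 3 (limma adjusted p from 0.0717 to 0.143). That of Ppp1r1a was also lost without flox control 2 (0.0968). Both were lost with a pseudocount of 0.1 (limma adjusted p = 0.0608 for Sln, 0.0629 for Ppp1r1a), without the filter (0.105, 0.106) or with voom (0.0791, 0.0591). Sln kept its call in 8 of 15 alternatives and Ppp1r1a in 3 of 14. In CKO, Sln had 4 to 79 reads and Ppp1r1a 11 to 29.

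Sln is also 1 of 8 atrial markers listed, of which 2 fell (Sln and Stard10), 1 rose (Nppa) and 5 did not pass. Of those 5, Myl7 (log2 fold change -1.90), Myl4 (-2.08) and Bmp10 (-1.33) had negative values, and Gja5 (0.10) and Dkk3 (0.78) positive ones. The sum of the 8, which Nppa dominates, was 576 to 2126 FPKM in CKO and 166 to 433 FPKM in flox controls. The part of the other 7 in the Sln difference was not tested.

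Genes of calcium release and surface calcium flux gave 1 rise, 0 falls and 18 genes that did not pass among 19 tested of 22 listed, with a median log2 fold change of 0.01. The share called over all genes tested was 5.69% higher and 5.49% lower. An unadjusted limma p under 0.05 was found for 7 of the 19, against 3365 of all 12144 genes tested. Of these 7, Ryr2, Tmem38a, Cacna1c, Cacnb2 and Cacna2d1 were lower in CKO, and Slc8a1 and Fkbp1b were higher. All but Slc8a1 had a limma adjusted p of 0.0543 to 0.107. Slc8a1, the sodium-calcium exchanger that removes calcium from the cell, rose (99.7 ± 26.2 FPKM in CKO, 26.5 ± 5.07 FPKM in flox controls, log2 fold change 1.85, limma adjusted p = 0.00762). Ryr2, the release channel to which triadin and junctin bind, was picked after its values were seen; it measured 24.5 ± 5.48 FPKM in CKO and 40.6 ± 5.12 FPKM in flox controls and did not pass (limma adjusted p = 0.0543). It passed with a filter at a mean of 5 FPKM (limma adjusted p = 0.0451), with recomputed size factors (0.049) and with voom (0.0467). Those factors were 0.993 to 1.011, so that fit was close to the main one. Ryr2 did not pass after rescaling to TPM (limma adjusted p = 0.0991) or to the same sum (0.089).

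Among pumps, buffers and refilling genes of the general endoplasmic reticulum and Golgi, 3 rose, 0 fell and 18 did not pass among 21 tested of 23 listed, with a median log2 fold change of 0.14. Over all genes tested, 5.69% were called higher and 5.49% lower. An unadjusted limma p under 0.05 was found for 6 of the 21, against 3365 of all 12144 genes tested. Orai2, a channel for store-operated calcium entry, rose (1.65 ± 0.0815 FPKM in CKO, 0.640 ± 0.0927 FPKM in flox controls, limma adjusted p = 0.0137). Nucb1 and Sdf4, which encode calcium-binding proteins of the Golgi, rose by 0.37 and 0.44 on the log2 scale (limma adjusted p = 0.039 and 0.042). Orai2 lost its call without flox control 1 (0.0519) or flox control 3 (0.0513), Nucb1 without any 1 library (0.0669 to 0.132), and Sdf4 without any 1 library except CKO 2 (0.0769 to 0.131; limma).

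**Figure D5:**
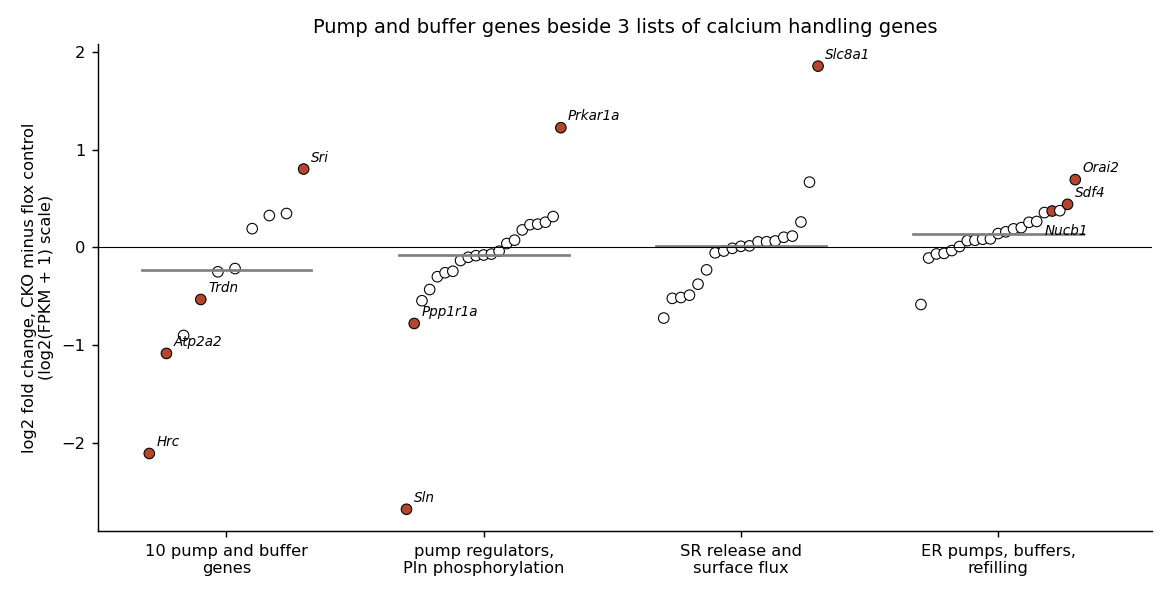
Log2 fold change (CKO minus flox control, log2(FPKM + 1) scale) of the 10 pump and buffer genes and of the tested genes of 3 calcium handling lists, each sorted from low to high; filled points passed adjusted p under 0.05 and grey lines are medians. Sln lies lowest at -2.68 and Slc8a1 highest at 1.85.

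Genes with the profile most like that of the pump were sought among 3890 tested genes whose mean FPKM was 10 or more, by Pearson r of log2(FPKM + 1) over the 6 libraries. These r values include the difference between the groups and are a description. For Atp2a2 they were Gm12439, a processed pseudogene (r = 0.989), Shank3, a synaptic scaffold gene (0.988), and Smim10l1 (0.986). Smim10l1 measured 11.8, 11.2 and 11.7 FPKM in CKO and 28.1, 28.5 and 28.7 FPKM in flox controls. For Pln they were Lmod3, which encodes the actin nucleator leiomodin 3 (0.996), the carnitine transporter gene Slc22a5 (0.995) and the mitochondrial aldehyde dehydrogenase gene Aldh2 (0.991).

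The members differed in gene structure (GENCODE M21, GRCm38). Hrc (chromosome 7, 45335290 to 45338974, plus strand) spans 3685 bases with 6 exons, and Pln (chromosome 10, 53337667 to 53345987, plus strand) spans 8321 bases with 2 exons. Atp2a2 (chromosome 5, 122453513 to 122502225, minus strand) has 20 exons, and Trdn (chromosome 10, 33080554 to 33476709, plus strand) has 38 exons over 396156 bases. Sri (chromosome 5, 8046078 to 8069379, plus strand) has 8 exons. The median tested protein-coding gene has 9 exons and spans 23640 bases. Genes that fell thus ranged from the short Hrc locus to the very long Trdn locus. The Trdn call stood at the threshold and was lost when any 1 library was left out. GGACT, a common form of the m6A consensus, was counted on the sense strand of the longest protein-coding transcript of each gene. It occurred 0 times in Pln and Trdn, once in Atp2a2 (0.223 per kilobase), once in Sri and 3 times in Hrc (1.24 per kilobase). In the other members it occurred, per kilobase, 2.17 times in Casq1, 1.48 in S100a1, 1.09 in Atp2a3, 0.782 in Casq2 and 0.598 in Asph. The median was 1.05 per kilobase over 10858 transcripts, of which 92.6% held at least 1 match. A match does not show that the base is methylated, and m6A was not measured here.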

How the data were processed

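Poly-A RNA of 6 mouse hearts was sequenced in pairs of 150 bp reads, per the labels' protocols. The authors deposited FPKM for each gene and library. DESeq2 1.20.0, featureCounts 1.5.0-p3, CASAVA, HISAT2 2.0.5 and the build GRCm38.p6 are named in the submitters' processing notes, without their roles. Gene lengths in bases were deposited beside them. Multiplied by these, 100% of FPKM values in each library came out as whole reads (tolerance 0.001). The library sizes behind the FPKM were not proportional to the recovered totals. Atp2a2 had 89520 of 17434296 reads in CKO 1 (820.5 FPKM) and 97011 of 17872221 in CKO 2 (819.9 FPKM).

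Genes averaging 1 FPKM or more (12144) were tested on log2(FPKM + 1), which understates changes of low genes. The test was limma 3.58.1 (R 4.3.3) with a variance trend and genotype as the only factor, adjusted over all genes. Ratios were compared with exact permutation tests. Figures and summaries used Python 3.11.15, pandas 2.3.3 and matplotlib 3.10.9. Alternatives changed the pseudocount, filter, scaling, variance model, values tested, replicate block and libraries included.

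The members, gene lists, named genes and alternatives were chosen with earlier results of these data known. Named genes are the 10 members, Ythdc1, Atp2a1, Sln, up to 4 called genes per list, the 3 most alike genes for Atp2a2 and for Pln, and markers. Release and flux genes named for an unadjusted limma p under 0.05 were added after their values were seen. Strit1 was listed among the pump regulators but not matched. GENCODE M21 held 54409 of the gene IDs, 53499 with identical bounds. Splicing and m6A were not analysed here.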

Additional observations from a re-analysis of the deposited data

How the results depend on the processing

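Hrc was called lower in all 15 alternatives, Asph, Casq1, Casq2 and S100a1 stayed uncalled in all 15 and Atp2a3 in all 14 it could be tested in (its mean is under 5 FPKM). Log2 fold changes kept their sign for every member and alternative except Casq1, which was -0.30 without CKO 2. Over the fits that left out 1 library, log2 fold changes lay between -1.13 and -1.001 for Atp2a2, -1.16 and -0.60 for Pln, -0.63 and -0.42 for Trdn, 0.74 and 0.90 for Sri and -0.30 and 1.18 for Casq1. Members called lower numbered 1 to 3 in those fits and members called higher 0 to 1; all genes called higher numbered 160 to 807 and lower 155 to 683. Pump regulators called lower numbered 0 to 2, release and flux genes called higher 1 to 2, and endoplasmic reticulum genes called higher 0 to 2.

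With no filter on low values, Atp2a2 (log2 fold change -1.08, limma adjusted p = 0.11) and Trdn (-0.53, 0.0881) lost their calls, which left 1 member called lower; 388 genes were called higher and 410 lower, among 27031 tested, with 1 pump regulator called lower and 1 endoplasmic reticulum gene called higher. Genes called lower numbered 439 after rescaling to TPM and 424 after rescaling to the same sum, with 567 and 565 called higher, so that the share of higher calls was larger than with FPKM as deposited (691 higher, 667 lower). Pump regulators called lower numbered 1 with TPM, the same sum, the filter at 5 FPKM or voom, 0 with a pseudocount of 0.1, and 3 without a variance trend. Release and flux genes called lower numbered 1 with the filter at 5 FPKM, recomputed median-of-ratios factors or voom, and endoplasmic reticulum genes called higher 2 with TPM, the same sum or the filter at 5 FPKM.

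The replicate numbers are shared by the groups, but deviations of same-numbered libraries correlated at 0.139, 0.0597 and -0.00548, so the numbers were not taken as pairs; not every library correlated best with its own number. With the replicate number as a block, Atp2a2 (log2 fold change -1.08, limma adjusted p = 0.062) and Trdn (-0.53, 0.0939) lost their calls and 1 member was called lower, and Ythdc1 lost its call (0.0542); 367 genes were called higher and 348 lower, with 1 pump regulator called lower and 0 endoplasmic reticulum genes called higher. The difference in the Pln to Atp2a2 log2 ratio was 0.18 with the pairs (exact sign-flip p = 0.75). The SD of Pln was 36.7% of its mean in CKO and 13.996% in flox controls, where read counting alone would give 0.835% in CKO and 0.626% in flox controls.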
